A study of Mus musculus with 8 samples.

Results

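De novo lipogenesis is the making of fatty acids from acetyl-CoA, and 10 mouse genes of this pathway were followed here: Srebf1, Acly, Me1, Acaca, Acacb, Fasn, Elovl6, Elovl5, Scd1 and Scd2. They were chosen by name, as every non-control row of the array that carried one of these symbols. All 10 were on the array, with 23 probes, out of 16037 genes with at least 1 tested probe in the whole data set. Of the 23 probes, 14 were tested and covered all 10 genes. The other 9 were too dim on most arrays to be tested, and for 7 of these no array read well above background.

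The samples were male C57BL/6J mouse tibialis anterior, the mostly fast-fibre muscle at the front of the shin, taken at 14 weeks of age. The P. gingivalis group held 4 samples from mice given Porphyromonas gingivalis, a bacterium of the gum pocket, by mouth for 6 weeks from 8 weeks of age, in 100 µL of saline through a feeding needle. The control group held 4 samples, and what the control mice were given, the bacterial dose and the time of day of sampling are not stated in the sources used. Per the labels' protocols both groups ate the diet named High-fat diet 32, so high-fat feeding is shared by both groups and no mouse on a standard diet enters the comparison. The protocol also assigns the bacteria to group names that no sample title carries. Nothing in the labels says that each sample was a separate mouse, so p-values measure the spread between these samples.

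In liver and fat, SREBP-1c, a transcription factor encoded by Srebf1, raises the transcription of the pathway's enzymes when insulin is high and dietary fat is low. ATP-citrate lyase (Acly) makes cytosolic acetyl-CoA from citrate, and malic enzyme (Me1) supplies NADPH. Acetyl-CoA carboxylases (Acaca and Acacb) make malonyl-CoA, fatty acid synthase (Fasn) builds palmitate from it, elongases (Elovl6, Elovl5) lengthen the chain, and stearoyl-CoA desaturases (Scd1, Scd2) put in a double bond. Skeletal muscle makes little fatty acid. There the Acacb product, malonyl-CoA at the mitochondrial surface, is known mainly as an inhibitor of the carnitine palmitoyltransferase step that admits fatty acids to oxidation. A piece of muscle also holds some fat cells, in which the same lipogenic transcripts are abundant.

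None of the 10 genes passed the adjusted threshold between P. gingivalis and control muscle (limma, Benjamini-Hochberg adjusted p of 0.417 to 0.981). The background was 0 of 31649 tested probes called (0%), with 3544 probes at an unadjusted p under 0.05. The means of 5 genes were higher and those of 5 were lower in the P. gingivalis group. Their median log2 change was −0.01, as was the median over all tested genes. The median size of change without its sign was 0.10 over the 10 genes and 0.09 over all genes. What stood out among the 10 was the spread of Scd1 between arrays inside each group.

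All levels below are log2 Cy3 signals relative to the array's own 75th percentile, so 1 unit is a doubling. A probe's brightness depends on its sequence, so levels of different probes were not compared. For a gene with several tested probes, the brightest by mean signal stands for the gene. The P. gingivalis arrays were dimmer before scaling, with 75th percentiles of 238.4 to 255.5 against 275 to 305.8 intensity units on control arrays. The exact permutation p, two-sided, was 0.0286, the lowest value that 4 against 4 arrays allow. They also filled slide row 2 while the controls filled slide row 1, and the row cannot be told apart from the group. From 56.3% to 59.3% of an array's spots read well above background. All 12 muscle fibre markers did so on all 8 arrays. All tested fat cell and endothelial markers did so too, so this check does not single out muscle.

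A second table that the authors deposited, of log2 values for 24764 probes, gave 4 of the 8 arrays the other group. Each of its columns had 1 clear partner among the scanner files. Correlations were taken over probes after each probe's mean over the 8 arrays was subtracted. They were 0.833 to 0.88 with the partner, and the next best was at most 0.0784. The groups used here are those of the scanner files. The files and labels do not settle which source is right, and for the values that turn on it most the change under the other grouping is given beside them. Under that other grouping the control arrays are those of slide columns 1 and 2, and the P. gingivalis arrays those of columns 3 and 4. So the slide column cannot be told apart from the group there. Only P. gingivalis 3 and 4 and control 1 and 2 had the same group in both.

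Among the 6 genes with more than 1 probe, Scd1 has only 1 on the strand of its brightest probe. In each of the 6, the probe farthest toward the 3′ end on that strand was well above background on all 8 arrays. For Acacb, Acaca and Acly this probe holds the hexamer AATAAA, the letters of the usual signal for cutting and polyadenylating a transcript. Of all 56605 distinct probes, 9.77% hold it. The 30-base stretches that follow show it in capitals, 5′ to 3′, because these probes carry the values for the carboxylases below. The Acacb probe lies at chr5:114700702-114700761 on the plus strand, the Acaca probe at chr11:84215093-84215152 on the plus strand and the Acly probe at chr11:100337674-100337733 on the minus strand (mm9, per the file headers).
Acacb: ctgaaagagctgcaaAATAAActatttttt
Acaca: acgttttgttgaAATAAAcctccacatttg
Acly: tcatgtttgctttaAATAAActagatagta
Both Scd1 probes are shown by their first 30 bases, because only the first of them gave a usable signal. That probe lies on the minus strand at chr19:44469387-44469446, and the other on the plus strand at chr19:44471140-44471199. The plus-strand probe was not well above background on any of the 8 arrays.
Scd1, minus-strand probe: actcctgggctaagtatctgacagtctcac
Scd1, plus-strand probe: agtttctacacaatccaaggaggaaactaa

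Srebf1 encodes the regulator SREBP-1c and its longer form SREBP-1a, which its single probe (chr11:60013214-60013273, minus strand) does not separate by name. It read 3.42, 3.85, 3.83 and 3.76 on P. gingivalis arrays and 3.80, 3.74, 3.79 and 3.83 on control arrays. P. gingivalis 1 was the lowest array, and the other seven lay within a narrow band that both groups shared. The log2 change was −0.08 ± 0.10 (SE, n = 4 each; limma adjusted p = 0.786), or 0.946-fold with a 95% confidence interval of 0.808 to 1.11. Without P. gingivalis 1 the change was 0.02, and with the groups of the value table it was 0.10.

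Acly, which makes the acetyl-CoA, stood at 1.48, 1.35, 1.17 and 1.35 on P. gingivalis arrays and at 1.61, 1.35, 1.22 and 1.52 on control arrays. The groups overlapped, and the log2 change was −0.09 ± 0.10 (SE, n = 4 each; limma adjusted p = 0.759; 0.938-fold, 95% confidence interval 0.795 to 1.11). Its other probe, toward the 5′ end, was well above background on 1 P. gingivalis array only and was not tested. Me1, the NADPH-making malic enzyme of the cytosol, stood at 5.75, 5.64, 5.74 and 5.74 on P. gingivalis arrays against 5.82, 5.86, 5.69 and 5.61 on control arrays. Its P. gingivalis arrays lay inside the control range. The log2 change was −0.03 ± 0.07 on this probe and 0.02 ± 0.09 on its other tested probe (SE, n = 4 each; limma adjusted p = 0.909 and 0.955). The 95% confidence interval on the brighter probe, 0.874-fold to 1.1-fold, leaves room only for small changes of Me1.

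Acacb encodes the acetyl-CoA carboxylase that predominates in muscle. On the representative probes it was the only one of the 10 genes whose groups did not overlap: 5.20, 5.25, 5.23 and 5.16 on P. gingivalis arrays and 5.33, 5.41, 5.31 and 5.38 on control arrays. Every P. gingivalis array was below every control array, by a small margin. The background is that 3.83% of all tested genes had non-overlapping groups lower in P. gingivalis muscle and 3.24% had them higher, and 1 of 10 genes is not a count that stands apart from those shares. The log2 change was −0.14 ± 0.06 (SE, n = 4 each), or 0.905-fold, and the 95% confidence interval of the log2 change was −0.27 to −0.02. The unadjusted limma p was 0.0322 and the adjusted p 0.417, and the exact permutation p was 0.0286. Among all tested genes 10.7% had an unadjusted p under 0.05, against 1 of these 10.

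The other 2 Acacb probes, which lie toward the 5′ end, had changes of the same sign with overlapping groups. The nearer one, 33028 bases upstream in the genome, changed by −0.11 ± 0.13, and the farther one, 85197 bases upstream, by −0.12 ± 0.08 (SE, n = 4 each; limma adjusted p = 0.771 and 0.605). On the first probe the interval of the change excluded 0, and on the others it did not. With median scaling the first probe's change was −0.11 with an unadjusted limma p of 0.13, so the difference is near the limit of these arrays. Under the groups of the value table it was −0.03.

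Acaca encodes the cytosolic carboxylase of lipogenic tissues. Its brightest probe gave 1.59, 1.63, 1.47 and 1.59 on P. gingivalis arrays and 1.56, 1.48, 1.51 and 1.53 on control arrays. The ranges overlapped, with a log2 change of 0.05 ± 0.06 (SE, n = 4 each; limma adjusted p = 0.762; 1.04-fold, 95% confidence interval 0.943 to 1.14). A dimmer probe 734 bases upstream gave −2.19, −2.11, −2.26 and −2.23 on P. gingivalis arrays and −2.41, −2.37, −2.47 and −2.37 on control arrays. There every P. gingivalis array was above every control array, beside 3.24% of all tested genes on their brightest probes. The log2 change on this second probe was 0.21 ± 0.06 (SE, n = 4 each), with an unadjusted limma p of 0.00767, an adjusted p of 0.334 and an exact permutation p of 0.0286. The 2 probes of Acaca therefore differ in size of change but not in sign, and neither passed the threshold. The other 5 Acaca probes were not tested, and 2 of these share 36 bases of sequence and are not separate measurements.

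Fasn encodes the synthase that builds palmitate, and 1 probe measured it (chr11:120668460-120668519, minus strand). It stood at 2.17, 2.29, 1.65 and 1.86 on P. gingivalis arrays and at 1.58, 1.97, 2.28 and 1.72 on control arrays. High and low arrays occurred in both groups, over a 1.63-fold range. The log2 change was 0.11 ± 0.19 (SE, n = 4 each; limma adjusted p = 0.852), and the 95% confidence interval of the fold reached from 0.801 to 1.44. The interval leaves room for a lower or a higher level of Fasn in P. gingivalis muscle.

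Elovl6 lengthens palmitate to stearate. Its probe (chr3:129337756-129337815, plus strand) gave −1.73, −1.84, −1.65 and −1.45 on P. gingivalis arrays and −1.82, −1.63, −1.40 and −1.22 on control arrays. The ranges overlapped and control 4 was the highest array, with a log2 change of −0.15 ± 0.14 (SE, n = 4 each; limma adjusted p = 0.702). Control 4 also stood apart in the keratins of the skin marker list, Krt5, Krt14, Krt10 and Krt79. The other tested skin markers lay there within the range of the other arrays, Mgst1 at 3.41, Awat2 at −5.18 and Soat1 at −2.66. The level of the whole list is the mean over its 7 tested genes of log2 signals centred on each gene. That level was 1.64 on control 4 and between −0.29 and −0.11 on the other arrays. Without control 4 the Elovl6 change was −0.05, and the part of skin RNA in the Elovl6 value was not tested.

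Elovl6 was also the member most affected by which source gives the groups. With the groups of the value table its log2 change was 0.33 ± 0.10 (SE, n = 4 each), opposite in sign to the value above. The limma p was 0.0115 unadjusted and 1 adjusted. Over the 4 arrays on which both sources agree it was 0.17 (2 arrays in each group, limma adjusted p = 0.685). No direction can be given for Elovl6 in these data. Elovl5, which elongates polyunsaturated chains, had by contrast the smallest change of the 10 genes. It stood at −0.07, −0.04, −0.12 and −0.03 on P. gingivalis arrays and at −0.16, −0.11, −0.01 and 0.00 on control arrays, a log2 change of 0.01 ± 0.06 (SE, n = 4 each; limma adjusted p = 0.981; 95% confidence interval of the fold 0.91 to 1.11).

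Scd1 encodes the main stearoyl-CoA desaturase of liver and fat. Its level was 1.32, 0.17, 0.76 and −0.02 on P. gingivalis arrays and 0.72, −0.89, 1.66 and −0.21 on control arrays. The 4 P. gingivalis arrays lay within the control range, and replicates 1 and 3 were higher than replicates 2 and 4 in both groups. The range over the 8 arrays was 5.85-fold, set by control 2 and control 3, and within the P. gingivalis group it was 2.53-fold. The log2 change was 0.24 ± 0.54 (SE, n = 4 each; limma adjusted p = 0.891), or 1.18 times with a 95% confidence interval of 0.501 to 2.78. That interval is wide enough to hold a doubling or a halving of Scd1.

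Scd2 is a second stearoyl-CoA desaturase gene beside Scd1 on chromosome 19. It stood at 0.72, 0.99, 0.52 and 0.77 on P. gingivalis arrays and at 0.46, 0.04, 0.84 and 0.83 on control arrays. Control 2 was the lowest array for both desaturases, and control 3 was the highest control array for both. In the P. gingivalis group the 2 genes did not follow each other, and Scd2 on P. gingivalis 2 was the highest of its 8 values. The log2 change of Scd2 was 0.21 ± 0.19 (SE, n = 4 each; limma adjusted p = 0.694; 1.15-fold, 95% confidence interval 0.857 to 1.56).

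**Figure D1:**
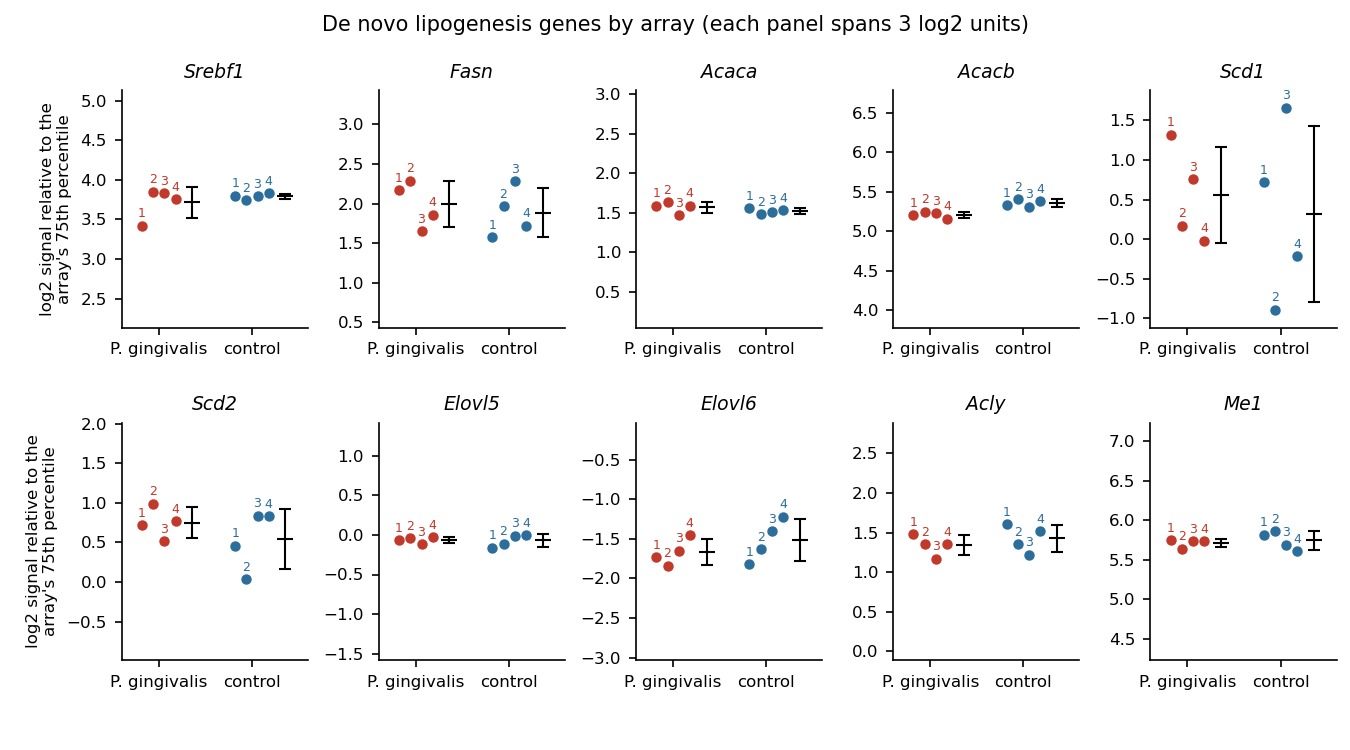
Level of each of the 10 genes on each array, on its representative probe, as log2 signal relative to the array's 75th percentile; red points are P. gingivalis arrays and blue points control arrays, numbered by replicate, and black bars give mean ± SD (n = 4). Acacb is the only panel without overlap, and Scd1 is the panel with the widest scatter, from −0.89 to 1.66.

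**Figure D2:**
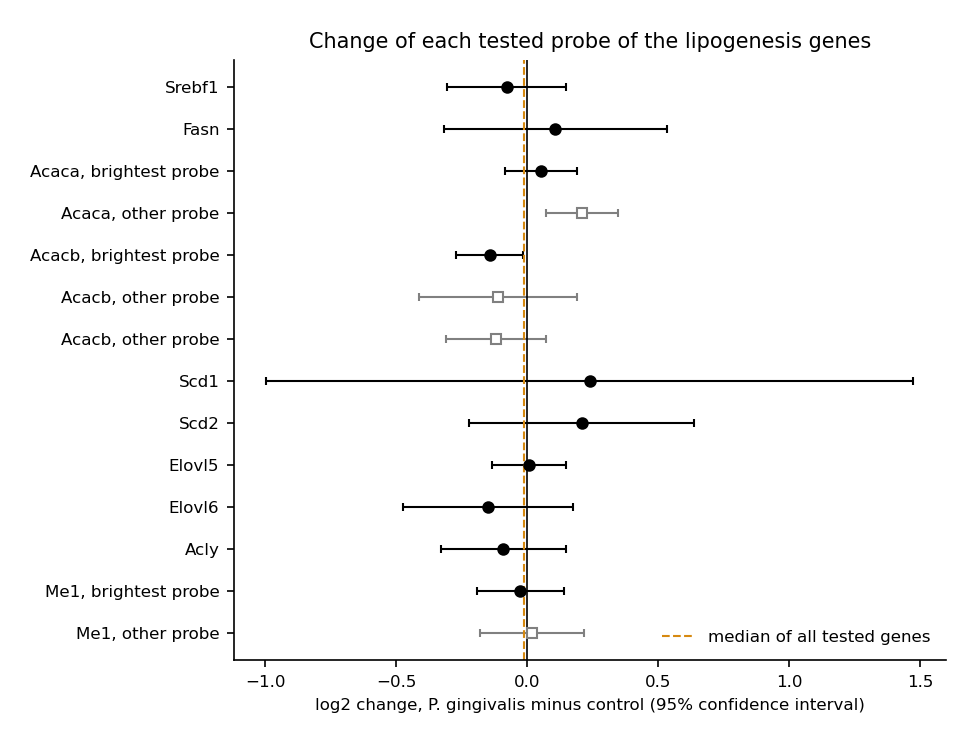
Log2 change, P. gingivalis minus control, of each of the 14 tested probes with its 95% confidence interval from limma; filled points are the representative probes and open squares the dimmer probes. Only the intervals of the brightest Acacb probe and of the dimmer Acaca probe exclude 0, and the Scd1 interval is the widest.

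The spread inside the groups differed widely between the 10 genes. The within-group SD of Scd1, the residual SD of the fit, was 0.895 log2 units, and 0.424% of the 16037 tested genes had a larger one. Scd2 and Fasn followed at 0.302 and 0.298, with 13.3% and 13.7% of genes above them. The within-group SDs of Acacb at 0.0433, Acaca at 0.0547 and Elovl5 at 0.0627 were by contrast among the smallest of all genes, with 97.8%, 93.9% and 89.6% of genes above them. The median over all genes was 0.127. These are values of the brightest probes. The dimmer tested probe of Acaca had a like SD of 0.0564, but the 2 dimmer probes of Acacb had SDs of 0.204 and 0.112, so the steadiness of Acacb holds for its brightest probe only.

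**Figure D3:**
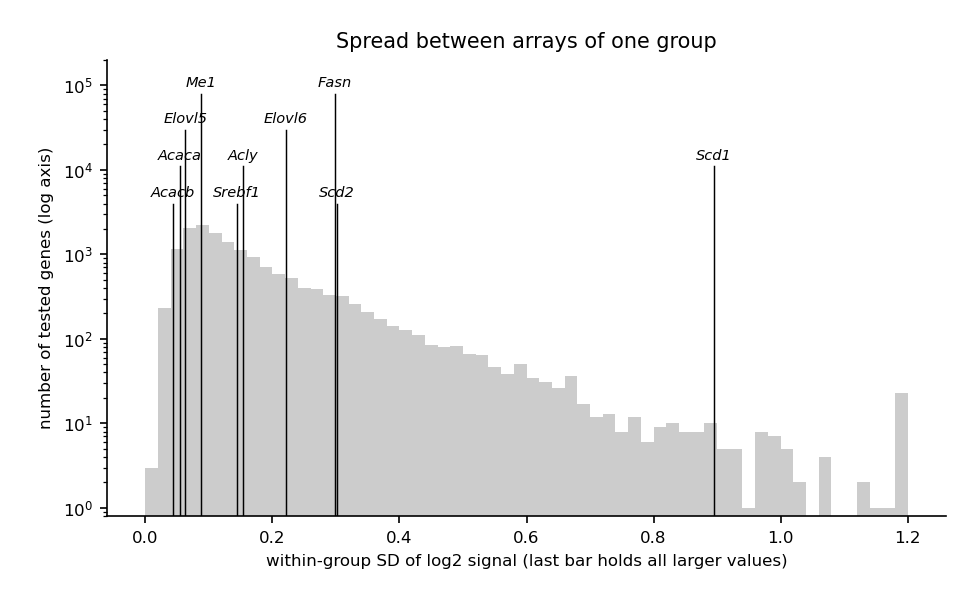
Distribution of the within-group SD over the 16037 tested genes (grey bars, number of genes on a log axis), with a line at each of the 10 lipogenesis genes. Scd1 lies far to the right at 0.895, and Acacb, Acaca and Elovl5 lie below 0.07.

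The pattern of Scd1 over arrays was most like those of fat cell genes. Among 16027 other genes, the closest by root mean square difference of gene-centred log2 levels over the 8 arrays was Adipoq, the hormone adiponectin, at 0.178. Retn, the hormone resistin, followed at 0.222 and Cidec, a lipid droplet protein of white fat, at 0.325, against an SD of 0.838 for Scd1 itself. Adipoq stood at 0.60, −0.88, 0.00 and −1.22 on P. gingivalis arrays and at −0.15, −1.54, 0.65 and −1.19 on control arrays. Like Scd1, it was higher on replicates 1 and 3 than on replicates 2 and 4 in both groups. Cfd, the fat cell protease adipsin, had the same split, at 3.11, 1.66, 2.58 and 1.28 on P. gingivalis arrays and 2.49, 1.64, 2.50 and 1.75 on control arrays. The replicate number is also the slide column, so the sample and the array's place on the slide cannot be told apart.

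The level of the whole adipocyte list, the mean of its 16 tested genes of 17 after centring each, was 0.398, −0.198, 0.199 and −0.401 on P. gingivalis arrays and 0.157, −0.135, 0.225 and −0.246 on control arrays. Over the 8 arrays Scd1 had a Pearson r of 0.795 with it (exact permutation p = 0.021, adjusted over 10 genes 0.21) and a Spearman rho of 0.81 (exact permutation p = 0.0218, adjusted 0.218). Without P. gingivalis 1 and 4, the arrays farthest from the median level, r was 0.814. After adjustment the relation did not pass the threshold for any of the 10 genes. For the other nine r ran from −0.505 in Srebf1 to 0.267 in Me1, with no unadjusted exact permutation p below 0.189. No correlation was computed within a group, since 4 arrays are too few for one.

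The adipocyte list did not separate the groups, with 10 genes of higher mean, 6 of lower mean and none without overlap. Its summed linear signal ran from 497 to 555 on P. gingivalis arrays and from 464 to 545 on control arrays, in multiples of the 75th percentile. That sum is carried mostly by Car3, Plin4, Lpl and Fabp4, which muscle tissue expresses outside fat cells. All 16 tested markers, Adipoq and Plin1 included, were well above background on all 8 arrays, and Ucp1 was not tested. Of the 16 markers, 6 had replicates 1 and 3 above replicates 2 and 4 in both groups as Scd1 did, namely Adipoq, Cidec, Retn, Cfd, Pck1 and Nnat. Among all tested genes 3.57% had that order. Car3 had the opposite order in both groups, and the other 9 markers had neither. Plin1 was highest on control 2, at −1.86, where Scd1 was lowest. In a bulk sample, fewer fat cells and less RNA per cell cannot be told apart, and the part of fat cell content in the Scd1 spread was not tested. Lep lay between −1.22 and −0.95 over the 8 arrays, and Lpl lay between 5.95 and 6.20.

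Fasn did not follow Scd1. Its closest genes were Casc1 at a root mean square difference of 0.0816, Slc39a14 at 0.0966 and Lrrc30 at 0.105, against an SD of 0.282 for Fasn. Slc39a14, a zinc and iron transporter, stood at 0.76, 0.59, 0.03 and 0.17 on P. gingivalis arrays and 0.03, 0.33, 0.55 and 0.15 on control arrays, and like Fasn was high on P. gingivalis 1 and 2 and on control 3. Thrsp, a fat and liver protein that promotes lipogenesis, stood at 2.23, 2.18, 1.89 and 1.96 on P. gingivalis arrays and 1.34, 1.75, 1.98 and 1.73 on control arrays. P. gingivalis 1 and 2 and control 3 were the high arrays of each group there too. Its log2 change was 0.37 ± 0.14 (SE, n = 4 each; limma adjusted p = 0.412), and the groups overlapped. Under the value table's grouping the change of Thrsp was 0.01. The closest genes to Srebf1 were Plcxd3, Zfp281 and Zfp707, at 0.0535 to 0.0546 against an SD of 0.14 for Srebf1, all lowest on P. gingivalis 1.

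**Figure D4:**
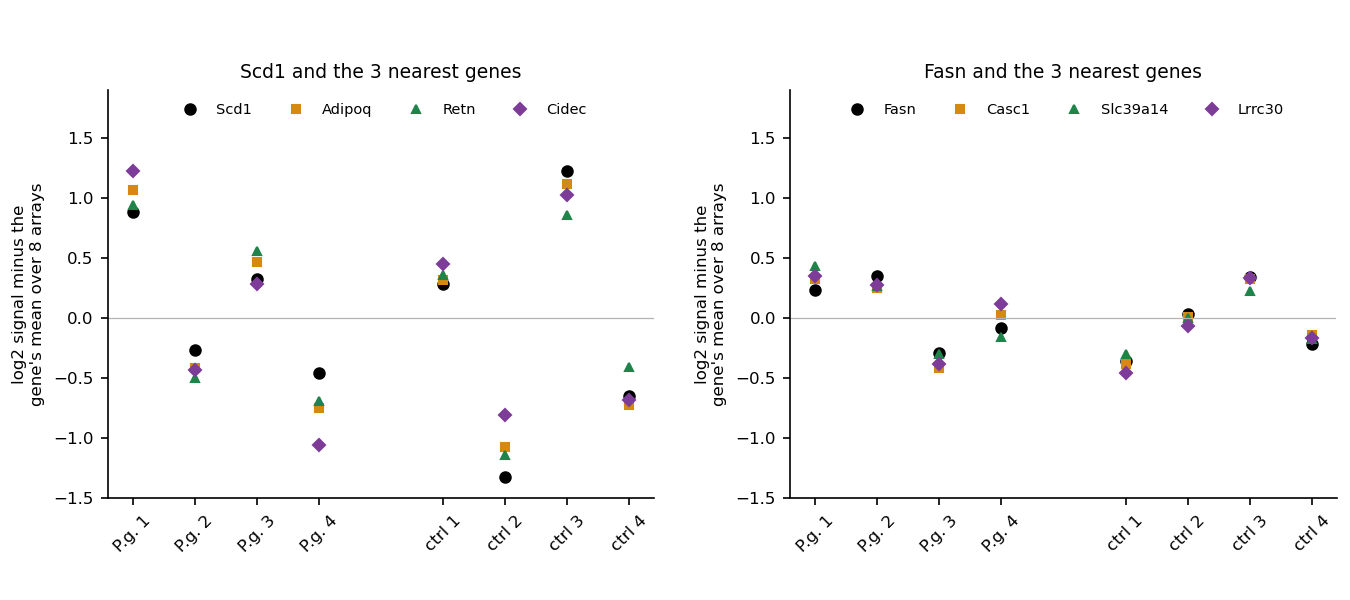
Log2 signal minus the gene's own mean over the 8 arrays, for Scd1 with Adipoq, Retn and Cidec (left) and for Fasn with Casc1, Slc39a14 and Lrrc30 (right); P. gingivalis arrays (P.g.) stand left of control arrays (ctrl). Scd1 and its nearest genes are above their mean on replicates 1 and 3 and below it on replicates 2 and 4 of both groups, and Fasn has another order.

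The wider pathway was read from 5 further gene lists, in which no gene passed the adjusted threshold. Of 19 genes that control SREBP-1c and its targets, 9 had a higher and 10 a lower mean in P. gingivalis muscle, with a median log2 change of −0.01, the same as for all genes. In 2 of them the groups did not overlap, both lower, beside 3.83% of all tested genes. Mlxipl encodes ChREBP, the factor that turns on lipogenic genes when glucose is high. It stood at 3.85, 3.86, 3.86 and 3.88 on P. gingivalis arrays and 4.05, 4.18, 3.96 and 4.08 on control arrays. The change of Mlxipl was −0.20 ± 0.06 (SE, n = 4 each; limma adjusted p = 0.354). The P. gingivalis arrays of Mlxipl were nearly alike, and all were below the control arrays. Nr1d1 encodes REV-ERBα, a clock repressor that in mouse liver is linked to SREBP activity through Insig2. Its change was −0.58 ± 0.09 (SE, n = 4 each; limma adjusted p = 0.309), and the hour of sampling, which can set a clock gene's level, is not stated in the sources used.

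Substrate and NADPH supply had 14 genes, of which 3 had a higher and 11 a lower mean in P. gingivalis muscle, with a median log2 change of −0.08 against −0.01 for all genes. In 2 the groups did not overlap, Acss1 and Taldo1, both lower, beside 3.83% of all tested genes. Acss1, a mitochondrial acetyl-CoA synthetase, read 3.30, 3.26, 3.27 and 2.95 on P. gingivalis arrays and 3.53, 3.52, 3.39 and 3.69 on control arrays, a log2 change of −0.34 ± 0.10 (SE, n = 4 each; limma adjusted p = 0.342). Taldo1, an enzyme of the pentose phosphate pathway, changed by −0.14 ± 0.06, and Idh2, the mitochondrial NADP-dependent isocitrate dehydrogenase, by −0.13 ± 0.08 with overlap (SE, n = 4 each; limma adjusted p = 0.443 and 0.57). The Acss1 value of P. gingivalis 4 was well below the other 3 of its group.

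Of 18 other elongation and desaturation genes 14 were tested, with 8 of higher and 6 of lower mean and none without overlap. The not tested ones were Elovl2, Elovl3, Elovl4 and Elovl7. Fads1, a desaturase of polyunsaturated fatty acids, had the lowest unadjusted p, with a log2 change of 0.33 ± 0.13 (SE, n = 4 each; limma adjusted p = 0.419). Scd3, the desaturase of skin glands in mice, changed by −0.31 ± 0.18, with P. gingivalis 1 lowest at −2.03, and Hacd3 by −0.14 ± 0.09 (SE, n = 4 each; limma adjusted p = 0.556 and 0.559).

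Malonyl-CoA use and turnover, the list closest to Acacb, had 11 genes with 5 of higher and 6 of lower mean. Oxsm, the mitochondrial ketoacyl synthase, was its only gene without overlap, at 0.26, 0.32, 0.35 and −0.01 on P. gingivalis arrays and 0.52, 0.35, 0.39 and 0.73 on control arrays. Among all tested genes 3.83% had groups without overlap that were lower. The gap between the groups of Oxsm was narrow, and its log2 change was −0.27 ± 0.11 (SE, n = 4 each; limma adjusted p = 0.439). Mcat, which loads malonyl groups in mitochondria, changed by −0.12 ± 0.06, and Mlycd, which breaks malonyl-CoA down, by −0.12 ± 0.07 (SE, n = 4 each; limma adjusted p = 0.497 and 0.568).

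Triglyceride assembly, the fate of newly made and of imported fatty acids, had 17 genes with 8 of higher and 9 of lower mean. Dgat2, which adds the last acyl chain, stood at 4.72, 4.64, 4.63 and 4.61 on P. gingivalis arrays and 4.93, 4.98, 4.85 and 4.75 on control arrays. All P. gingivalis arrays of Dgat2 were below all control arrays, as in 3.83% of all tested genes. The log2 change of Dgat2 was −0.23 ± 0.07 (SE, n = 4 each; limma adjusted p = 0.349). Agpat2, an earlier acyltransferase, changed by −0.18 ± 0.08 without overlap, and Acsl1, the main acyl-CoA synthetase of muscle, by −0.17 ± 0.08 with overlap (SE, n = 4 each; limma adjusted p = 0.446 and 0.453). Each of these 3 genes had a lower mean in P. gingivalis muscle, as had Acacb, and none was called.

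Over the 5 lists together, 7 of 75 tested genes (9.33%) had groups without overlap that were lower in P. gingivalis muscle and 0 had them higher, beside 3.83% and 3.24% of all tested genes. With quantile normalization the counts were 5 lower and 1 higher, the higher one being Fads1, beside 3.65% and 3.74% of all tested genes. With median scaling they were 4 lower and 0 higher, beside 2.63% and 4.58% of all tested genes. Mlxipl, Nr1d1, Acss1 and Dgat2 kept their separation in both. Acacb kept it too. Under the value table's grouping, 0 of the 75 were lower and 1 higher, beside 1.65% and 0.773% of all tested genes. The log2 changes under that grouping were −0.04 for Mlxipl, −0.01 for Nr1d1, −0.07 for Acss1, −0.11 for Dgat2 and 0.06 for Agpat2. The separation of these genes thus rests on the groups of the scanner files.

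**Figure D5:**
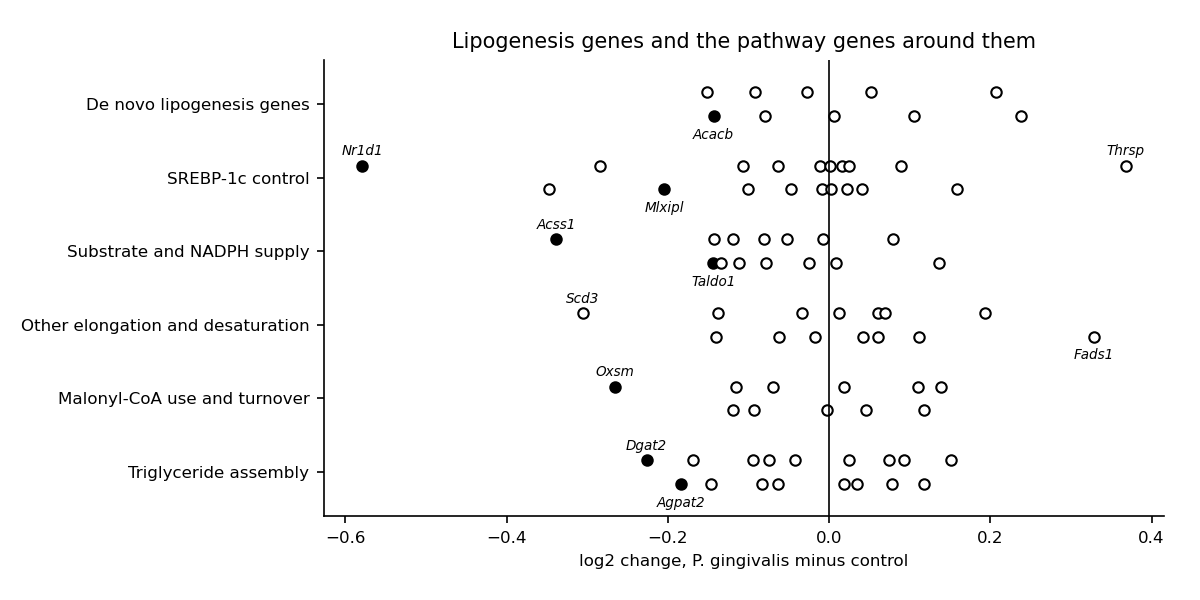
Log2 change, P. gingivalis minus control, of the representative probe of each of the 10 lipogenesis genes (top row) and of each tested gene of the 5 pathway lists; filled points are genes whose groups did not overlap. All 8 filled points lie left of 0, and no gene passed the adjusted threshold.

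Markers of other cells were also set beside the groups. None passed the adjusted threshold, and their part in the values above was not tested. All 6 fibroblast markers had a higher mean in P. gingivalis muscle, 3 of them without overlap (beside 3.24% of all tested genes), and their summed signal ran from 171 to 197 on P. gingivalis arrays against 135 to 176 on control arrays. The log2 changes of Col1a1, Col3a1 and Lum were 1.01, 0.94 and 0.65 (limma adjusted p = 0.336, 0.329 and 0.323). Of 5 macrophage markers, 4 had a higher mean, with sums of 9.18 to 12.9 on P. gingivalis arrays and 6.77 to 9.19 on control arrays. All 5 endothelial markers had a lower mean, Kdr without overlap at −0.59 (beside 3.83% of all tested genes), with sums of 7.87 to 10.3 on P. gingivalis arrays and 9.36 to 11.7 on control arrays. Among muscle fibre markers 11 of 12 had a higher mean, with sums of 7828 to 8154 on P. gingivalis arrays and 7115 to 7797 on control arrays. Under the value table's grouping the log2 changes were −0.01 for Col1a1, 0.17 for Col3a1, 0.28 for Lum and 0.18 for Kdr, and 4 of 6 fibroblast, 2 of 5 macrophage, 5 of 5 endothelial and 3 of 12 muscle fibre markers had a higher mean. The differences in these lists thus depend on which source gives the groups. All genes of these 4 lists were well above background on all 8 arrays. The 10 myelin markers and 6 slow fibre markers had no gene without overlap, with myelin sums of 11.4 to 15.6 on P. gingivalis arrays and 11.3 to 13.9 on control arrays. Slow fibre sums were 281 to 296 on P. gingivalis arrays and 249 to 292 on control arrays, carried mostly by Myl3. The slow fibre level, the mean of log2 signals centred on each gene, varied more. It ran from −0.61 to 0.814 on P. gingivalis arrays and from −0.436 to 0.569 on control arrays. Myh7 ranged 9.52-fold over the 8 arrays.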

How the data were processed

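Cy3 intensity was measured on 8 one-colour Agilent arrays, and the authors' deposited scanner files were written by Agilent Feature Extraction. The file headers give version 11.0.1.1 of it and the submitters' processing notes 11.1. The processed intensity was background-subtracted within each array, per the file headers, and not normalized between arrays. The authors' deposited value table holds log2 signals with column medians of 7.357 to 7.374. Its scaling is not given in the sources used here. From each log2 intensity the 75th percentile of all non-control spots on that array was subtracted, and spots of 1 probe were averaged. Outlier spots were left out and no spot was saturated. A probe had to read well above background on 4 or more of the 8 arrays to be tested, which 31649 of 56605 did. The comparison used limma (version 3.58.1, R 4.3.3), lmFit and eBayes without covariates. Adjusted p-values are Benjamini-Hochberg values over the tested probes, with 0.05 as the threshold. Errors are SE or 95% intervals of that fit, and exact permutation tests were two-sided over 70 assignments. All arrays shared 1 slide and 1 scan, so neither could be fitted as a batch, and the number of arrays limits the precision. Probe positions are on mm9. Names other than the members' followed the RefSeq table of GRCm38.p6, by which 12756 probes had no current name.

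The genes named were all 10 lipogenesis genes, all tested adipocyte markers, the 3 genes of lowest unadjusted p in each other list, and the 3 nearest genes to Srebf1, Fasn and Scd1. The members and lists were chosen with earlier results of these data known. Alternatives covered background correction, scaling, filter, variance trend, array weights, probe averaging, a replicate block, arrays left out and the value table's values and groups.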

Additional observations from a re-analysis of the deposited data

Results flagged for a closer look

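In each group of 4, an array was flagged when its gap to the nearest other array took up more of the group's range than Dixon's 95% critical value for 4 samples. Of 148 groups examined, over genes and list levels, 12 were flagged, and chance flags about 1 in 20. Among the lipogenesis genes only Me1 was flagged, with P. gingivalis 2 at 5.64 and the other P. gingivalis arrays at 5.74 to 5.75. Control 4 was flagged for Krt14 at 1.34 (other controls −4.79 to −4.52), Krt5 at 0.64 (other controls −3.62 to −3.35), the skin marker level at 1.64 and the endothelial marker level at 0.31. P. gingivalis 1 was flagged for the skin marker level at −0.11, with −0.27 to −0.24 on the other P. gingivalis arrays. P. gingivalis 4 was flagged for Acss1 at 2.95 and Pecam1 at −1.01. Control 3 was flagged for Scd3 at −1.47 and Atp2a2 at 0.23. Control 1 was flagged for Cd68 at −0.07 and the malonyl-CoA list level at 0.05.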

How the results depend on the processing

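No lipogenesis gene passed the adjusted threshold under any of 21 alternatives, the lowest adjusted p being 0.0928 for Acacb with normexp background correction. Of 210 values, 187 kept their direction, but part of these could not do otherwise. The filters, the variance trend and the replicate block left the change of every member as it was. Probe averaging did so for genes with 1 tested probe. With the value table under its own labels, changes of opposite sign were 0.0957 for Srebf1, −0.0805 for Fasn, −0.0335 for Acaca, 0.0262 for Acacb and 0.287 for Elovl6. With the groups of the matched columns they were 0.10 for Srebf1, −0.125 for Fasn, −0.0393 for Acaca and 0.33 for Elovl6. Over the 4 arrays of 1 group in both sources they were 0.0206 for Srebf1, −0.0195 for Fasn and 0.175 for Elovl6. Me1 was at 0.0043 with median scaling. With the value table's columns matched to the arrays, Me1 was at 0.00916 and Acly at 0.013. That alternative was chosen after seeing the data, and 3 genes had a lower mean under it. Fits to the value table's values read Me1 on its other tested probe, whose change from the scanner files was 0.02. Under the table's own labels Me1 was at −0.00807. The counts above set these Me1 values against the brighter probe, so their direction also reflects the probe.

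With 1 array left out at a time, changes ran from −0.164 (without control 2) to 0.685 (without control 3) for Scd1, −0.124 to 0.019 for Srebf1, −0.0236 to 0.0306 for Elovl5 and −0.0718 to 0.00932 for Me1. Without a change of sign they ran from 0.00485 (without control 1) to 0.237 (without control 3) for Fasn, 0.0383 (without control 2) to 0.307 for Scd2, −0.16 (without control 3) to −0.0299 (without control 1) for Acly, −0.252 (without control 1) to −0.0507 (without control 4) for Elovl6, 0.0309 to 0.0851 for Acaca and −0.159 to −0.125 for Acacb. Without the 2 farthest arrays the r of Fasn with the adipocyte level was −0.161. The number of all tested probes called was 14 with normexp, 2 without the filter on dim probes, 2 with an intensity trend and 1 with the matched value table. Probes with an unadjusted p under 0.01 numbered 899 (44.9% higher) and 3618 with normexp (82.7% higher), 443 with probes averaged per gene, of which fewer are tested, 134 and 206 with the value table's values or groups, and 585 on the 4 shared arrays. The share higher was 55.4% with quantile normalization and 63.8% with median scaling. The causes were not tested. The fit with a replicate block called 0 probes, with 3406 at an unadjusted p under 0.05, and left 725 at p under 0.01. Samples of the same number barely deviated together (correlations of 0.0069 to 0.063), so the numbers were not taken to pair samples. The 4 arrays of a group limit what could be detected, most of all for Scd1, then for Scd2 and Fasn.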
